A study of Mus musculus with 64 samples.

Results

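Transposon insertions were examined in 3 Mef2 transcription factor genes (Mef2c, Mef2a and Mef2d) and 3 class IIa histone deacetylase genes (Hdac4, Hdac7 and Hdac9). The 6 genes were chosen by name from the Gene column of the deposited table, which names 17126 genes, with their counts in the PB tumours already known. Of 385883 deposited lines, 398 name one of the 6 genes, and 393 of 299585 insertions remained after the steps given under the processing of the data. Of these, 294 were found in tumours and 38 in tails of the PB system, 34 in tumours and 27 in tails of the SB system. Since the PB tumour counts had a part in the choice, these counts and their comparison with the tails are given as a description, without a test. The strand, the reads and the position of the insertions, and the comparison of SB tumours with SB tails, were not used by that choice. Strand, reads and position were tested over all genes within the tumours, and so were the insertion counts of SB tumours against SB tails. Between tumours and tails, strand, reads and position were compared for members alone.

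Mef2 proteins bind A/T-rich elements in promoters and enhancers and act as switches. With class IIa histone deacetylases bound they repress their targets, and once kinases have marked the deacetylases for export from the nucleus they recruit acetyltransferases and activate the same genes. In B cells, Mef2c acts in the response to the antigen receptor and in the germinal centre, and MEF2B is mutated in human diffuse large B cell lymphoma. Class IIa deacetylases have little enzyme activity of their own and work through a corepressor complex.

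The 64 samples came from mice in which a transposase moved copies of an ITP transposon through the genome. The PB groups (genotype IMPB, 30 tumours and 12 tails) carried a constitutive PiggyBac transposase at Rosa26 with ITP transposons. The SB groups (genotype IMSB, 11 tumours and 11 tails) carried a constitutive Sleeping Beauty transposase at Rosa26 with ITP1-C or ITP2-M, and came from parents that were both Blm m3/m3, so that tumours and tails share the Blm alleles. The Blm status of the PB mice was not given in the sources used here. The strain background was a mix of 3 strains, among them C57BL/6 and FVB. The tumours were diffuse large B cell lymphomas taken from lymph nodes, mesenteric masses, spleen and other sites, and a tail is an unselected tissue of another kind, so that tissue and selection cannot be told apart. The transposase was active in the whole body. Ages are not given in the sources used here. Genomic DNA carries no expression marker by which the labelled tissue could be checked.

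An insertion is a TTAA (PB) or TA (SB) site with at least 2 reads in a sample, counted once per sample whatever its number of reads. The median sample held between 3548 and 4361 insertions, with 756 to 10798 in single samples, and the median reads per sample lay between 104091 and 136579. PB tumour 3 stood apart with 5721822 reads, against 315376 in the next PB tumour, and values without it are given for the comparison with tails, the ratios and the spleens. Reads come from PCR without molecular identifiers and do not count molecules, and the intervals given below cover counting error only. The codes in the sample titles all differ, so each mouse was taken to have given 1 sample, which no source used here states. Nor does any say how the mice are related, and p-values measure the spread between these samples.

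Mef2c lies on chromosome 13 from 83504017 to 83667080 (mm10, GRCm38) on the plus strand and holds 1457 TTAA and 12534 TA sites over 163 kb. Its RefSeq transcripts begin at 4 places, 83504034, 83523656, 83524743 and 83573607, and its first coding base is 83575677. In the PB tumours 150 of its TTAA sites were hit, 28 of them in more than 1 tumour, and 5 in 3 tumours each. These 5 sites are shown since they are the most recurrent of the gene. They are read from the plus strand of GRCm38, 5′ to 3′, in windows of 100 bases, and capitals mark each TTAA that was hit in a PB tumour.
Mef2c chr13:83530944-83531043: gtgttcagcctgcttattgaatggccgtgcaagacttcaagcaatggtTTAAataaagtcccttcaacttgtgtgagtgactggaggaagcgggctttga
Mef2c chr13:83534578-83534677: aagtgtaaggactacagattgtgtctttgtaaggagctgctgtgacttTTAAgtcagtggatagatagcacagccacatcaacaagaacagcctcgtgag
Mef2c chr13:83573807-83573906: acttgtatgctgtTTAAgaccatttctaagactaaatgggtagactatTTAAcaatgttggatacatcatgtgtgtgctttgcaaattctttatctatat
Mef2c chr13:83607126-83607225: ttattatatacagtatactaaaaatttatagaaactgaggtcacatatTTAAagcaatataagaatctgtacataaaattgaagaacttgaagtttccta
Mef2c chr13:83649799-83649898: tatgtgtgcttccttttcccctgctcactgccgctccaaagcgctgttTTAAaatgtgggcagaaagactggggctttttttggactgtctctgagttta
All 5 lie in introns. The window around 83573855 holds a second hit TTAA, at 83573820, which was found in 2 tumours, and both lie shortly after the most 3′ of the 4 RefSeq starts, which is at 83573607. At 83573855 the 3 insertions had 2, 7 and 838 reads. At 83649847 the 3 insertions had 5, 9 and 5584 reads, the last being the best covered Mef2c insertion of all. At 83607174 all 3 insertions were on the strand of the gene, with 2, 3 and 63 reads. At the other 4 sites both strands occurred.

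Of the 28 Mef2c sites hit in more than 1 PB tumour, 14 had all insertions on 1 strand (50%). Over the whole genome that was so at 2673 of 5518 sites (48.4%). A site of another sample was shared by 62 of the 183 Mef2c insertions (33.9%), compared with 8.98% of all 156874 PB tumour insertions. A gene with many insertions on few sites shares more of them, so these shares differ in their basis. Without all insertions at sites of several samples, Mef2c kept 121 insertions in 29 PB tumours, 7.27 times the number expected, against 9.91 times with them.

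Mef2c held 183 insertions in 29 of the 30 PB tumours. The counts per tumour ran from 0 to 28 with a median of 4, and in the 12 tails from 0 to 3 with a median of 1 and 13 insertions in all. The highest counts were 28 in PB tumour 22 (a mesenteric lymph node), 24 in PB tumour 20 (a mesenteric mass), 16 in PB tumour 3 (a spleen) and 10 in PB tumour 14 (a mesenteric lymph node). The only PB tumour without one, PB tumour 25, was a spleen. The groups overlapped: 3 PB tails had no Mef2c insertion, and single tails reached 3. The number of Mef2c insertions went with the number of all insertions of a tumour (Spearman's rho 0.73, a description over 30 tumours that differ in depth). Relative to 1000 kept insertions of the sample, Mef2c reached 1.11 ± 0.908 (SD, n = 30) in tumours, compared with 0.362 ± 0.424 in tails (SD, n = 12), with the highest values, 4.14 and 3.12, in PB tumours 22 and 14.

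**Figure D1:**
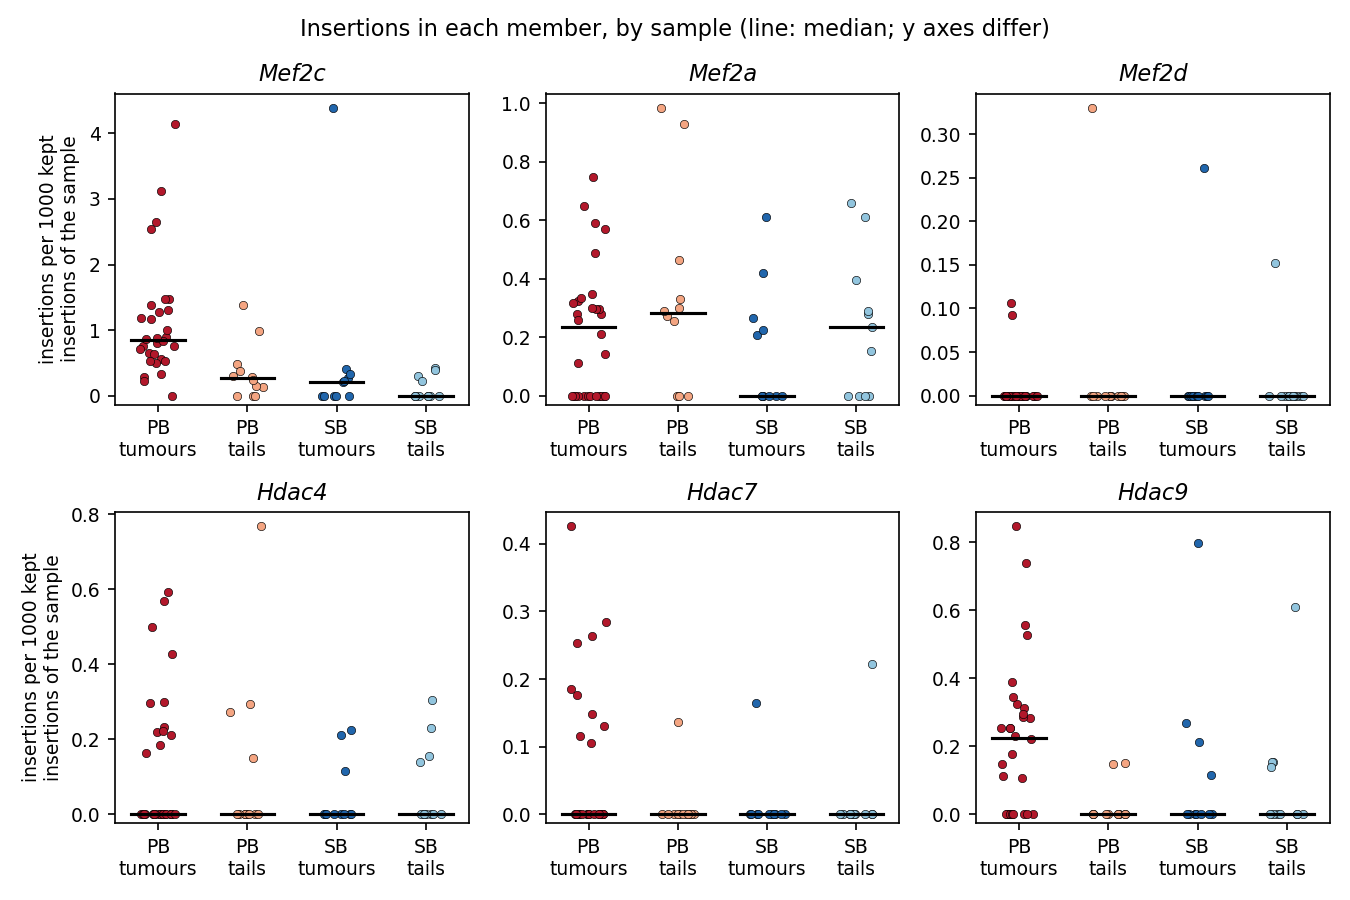
Insertions in each of the 6 genes per 1000 kept insertions of the sample (y axis, own scale per gene) for tumours and tails of either system, with 1 point per sample and a line at the median. For Mef2c the median of the PB tumours, 0.847, lies above that of the PB tails, 0.262, and 1 SB tumour stands apart at 4.39.

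From the gene's share of the TTAA sites of chromosome 13, 18.5 Mef2c insertions were expected in the PB tumours, and the 183 found were 9.91 times that number (exact Poisson 95% interval 8.53 to 11.5). In the tails 13 insertions against 6.1 expected gave 2.13 (1.13 to 3.64). This expectation counts sites only, and takes no account of chromatin or of other preferences of the transposase. Outside the gene the PB tumour counts lay closer to the number expected than within it. The 100 kb before it held 9 in the PB tumours (0.978 times the number expected) and the 100 kb after it 14 (1.57 times). In the PB tails these stretches held 1 (0.329 times) and 2 (0.68 times). Whether tumours and tails differ there was not tested. In edgeR's quasi-likelihood fit over 3303 genes, the log2 fold change of Mef2c, PB tumours over PB tails, was 1.92 ± 0.39 (SE). How the SE of edgeR was derived is given under the processing of the data. In that fit 71 genes (2.15%) were called higher in tumours and 76 (2.3%) lower at an adjusted p of 0.05, so that 48.3% of the calls were higher. The scaling moved this split. The median log2 fold change of all genes was 0.198, and 0.42 after TMM scaling (146 higher and 45 lower, 76.4% higher) and 0.4 in DESeq2 (71 and 20, 78% higher), where Mef2c had 2.20 ± 0.42 and 2.42 ± 0.54. Mef2c and Hdac9 were the 2 of 5 tested members among the 71, and nothing is read from this count, since the choice of the genes used it.

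Without the libraries that stand apart, the log2 fold change was 1.90 ± 0.39 without PB tumour 3 and 1.64 ± 0.40 without PB tumours 20 and 22, which hold the most. Sample names are written in 2 forms, joined and separated, and the values were 1.67 ± 0.56 among joined names and 2.05 ± 0.60 among separated names. With each gene counted once per sample the log2 fold change was 0.01. At least 1 Mef2c insertion was found in 29 of 30 tumours and 9 of 12 tails.

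Within the gene, more than the share of sites lay before the first coding base. That stretch held 108 of 183 insertions (59%) on 47.8% of the TTAA sites, in 28 tumours, while in the tails 3 of 13 insertions (23.1%) lay there. Between the starts at 83524743 and 83573607, which bound 32.7% of the sites, there were 86 insertions (47%) in 27 tumours, and the 2.07 kb from the last start to the first coding base, with 1.85% of the sites, held 11 (6.01%) in 8 tumours. Before the start at 83523656, with 13% of the sites, there were 11 insertions (6.01%). The last 4.45 kb, from the end of the coding sequence on, had 45 TTAA sites and none. Only 1 of the 183 insertions fell in an exon, where 3.5% of the sites lie. In 4 equal parts of the TTAA sites, from the start of the gene, the counts were 44, 70, 49 and 20.

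In steps of 10 kb from the start of the gene, the steps from 60 to 70 kb (25 insertions in 17 tumours) and from 100 to 110 kb (24 in 13 tumours) held the most, while the first step held 2 and that from 150 to 160 kb held 1. The densest window of 2 kb, chosen for its count, ran from 83605866 to 83607865. It held 12 insertions of 8 tumours on 8 of its 17 TTAA sites, and 1 insertion of a tail. Of the 12 insertions, 7 had at least 10 reads. The mean position of the insertions, on a scale from 0 at the first TTAA site of the gene to 1 at the last, was 0.446 ± 0.134 (SD, n = 29 tumours) and lay below 0.5 in 22 of 29 tumours (two-sided exact sign-flip permutation test, p = 0.0352, adjusted p = 0.239 over 1976 genes). Thus the shift did not pass the test over all genes, which called 52 of them (2.63%). An unadjusted p below 0.05 was found for 339 genes (17.2%). The median over these 1976 genes was 0.461, so a mean below 0.5 was common, and Mef2c lay close to that median. With only insertions of at least 10 reads the mean position of Mef2c was 0.504, on the other side of the middle.

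**Figure D2:**
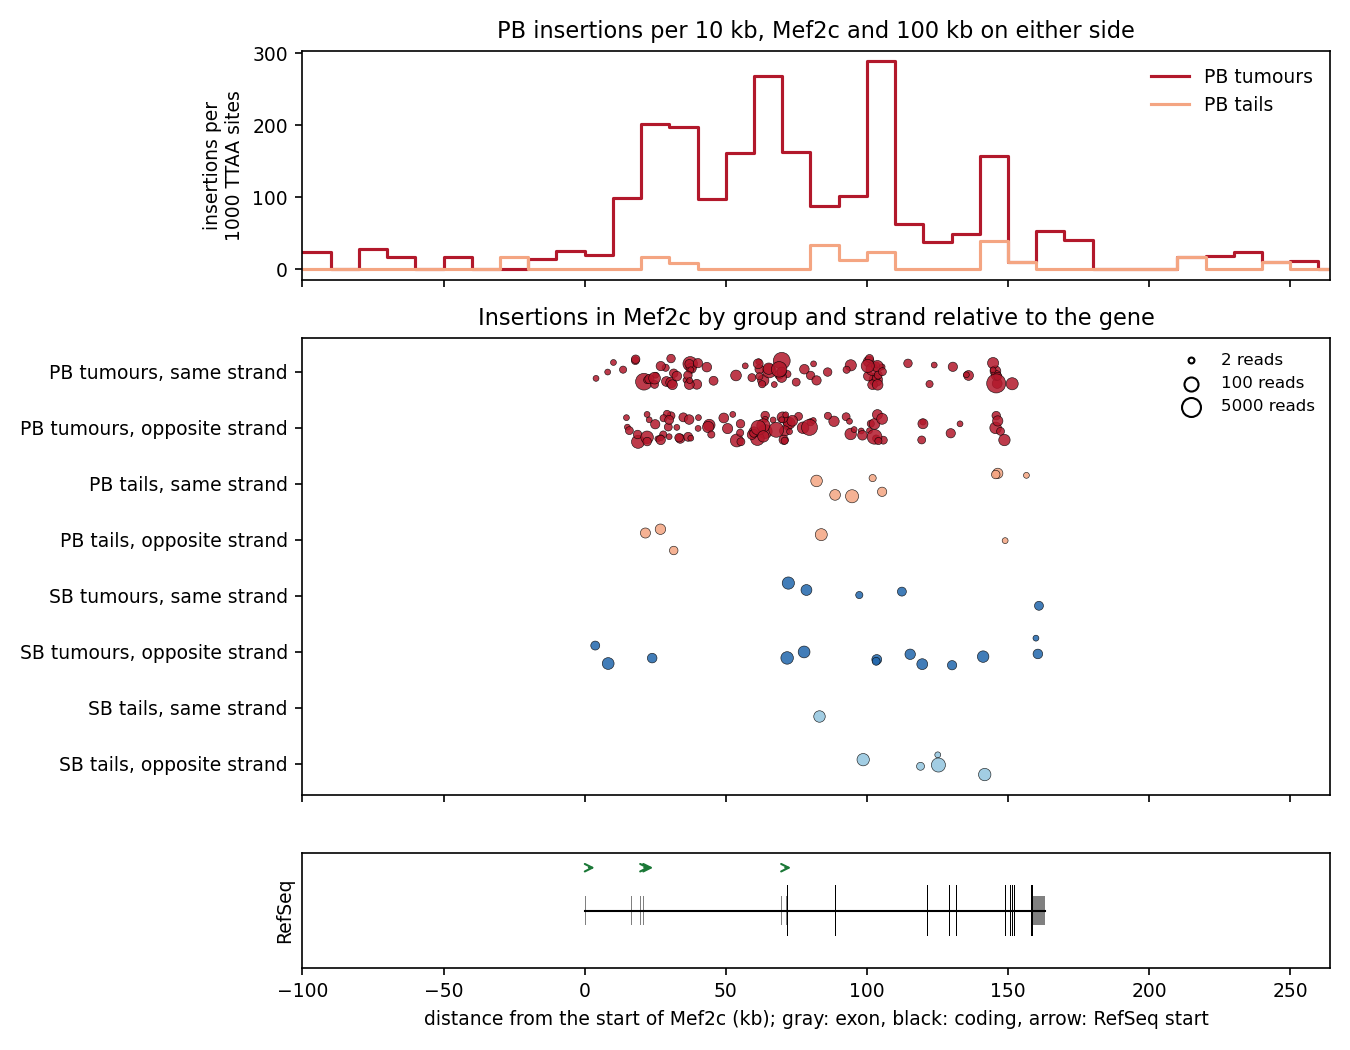
Top, PB insertions per 1000 TTAA sites in steps of 10 kb over Mef2c and 100 kb on either side. Middle, each Mef2c insertion (point area grows with the log of its reads) by group and strand, and bottom, RefSeq exons (gray), coding exons (black) and starts (green arrows), all against the distance from the start of the gene in kb. The PB tumour insertions lie on both strands, thin toward either end of the gene, and the steps from 60 to 70 kb and from 100 to 110 kb hold 25 and 24 of them.

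Both strands were used in Mef2c. In the PB tumours 88 of 183 (48.1%) were on the strand of the gene (two-sided exact sign-flip permutation test over 29 tumours, p = 0.563, adjusted p = 1), and 11 of 28 were so in PB tumour 22 and 14 of 24 in PB tumour 20. No gene passed this test among 1983 in the PB tumours (0%), with 64 at an unadjusted p below 0.05. On simulated data it found only 84 of 200 genes with a strand shift, so a shift can be missed. Between PB tumours and tails the per-sample share on the strand of the gene was 45.7 ± 26.7% (SD, n = 29) against 59.3 ± 49.4% (SD, n = 9), a difference within the spread (exact permutation test, p = 0.295).

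Most Mef2c insertions were thinly covered, as were most insertions of the PB tumours. Of the 183, 52 (28.4%) had at least 10 reads, compared with 36.2% of all PB tumour insertions. The minimum of 2 reads was found for 42 (23%), compared with 16.3% of all. These shares pool the insertions of tumours that differ in depth. In PB tumour 22 only 3 of 28 had at least 10 reads, and in PB tumour 20 only 3 of 24. Among the 100 insertions with the most reads of each tumour there were 5 Mef2c insertions (2.73% of the 183, compared with 1.93% of all insertions). The best covered one, the 5584 reads at 83649847 in PB tumour 22, was the fifth of 6763 insertions of that tumour and took 3.26% of its reads. The next by order were 762 reads in PB tumour 8 at 83525031, rank 48 of 6974, and 427 reads in PB tumour 22 at 83583684, rank 61. Ranked by reads among all insertions of their sample, the Mef2c insertions had a mean percentile of 47.5 ± 14.1 (SD, n = 29 tumours), above 50 in 12 tumours and below in 17 (two-sided exact sign-flip permutation test, p = 0.356, adjusted p = 0.944). This test called none of 2016 genes (0%), with 119 at an unadjusted p below 0.05. In the 9 PB tails with a Mef2c insertion the mean percentile was 30.7 ± 28.7 (SD), which is 16.8 lower (exact permutation test, p = 0.0222), and the mean position was 0.588 ± 0.266, which is 0.143 further along the gene (exact permutation test, p = 0.036). Neither p is corrected for the 21 such comparisons made, of which 5 had a p below 0.05. These comparisons were made for members alone, so no share over all genes is known and nothing is read from the count.

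**Figure D3:**
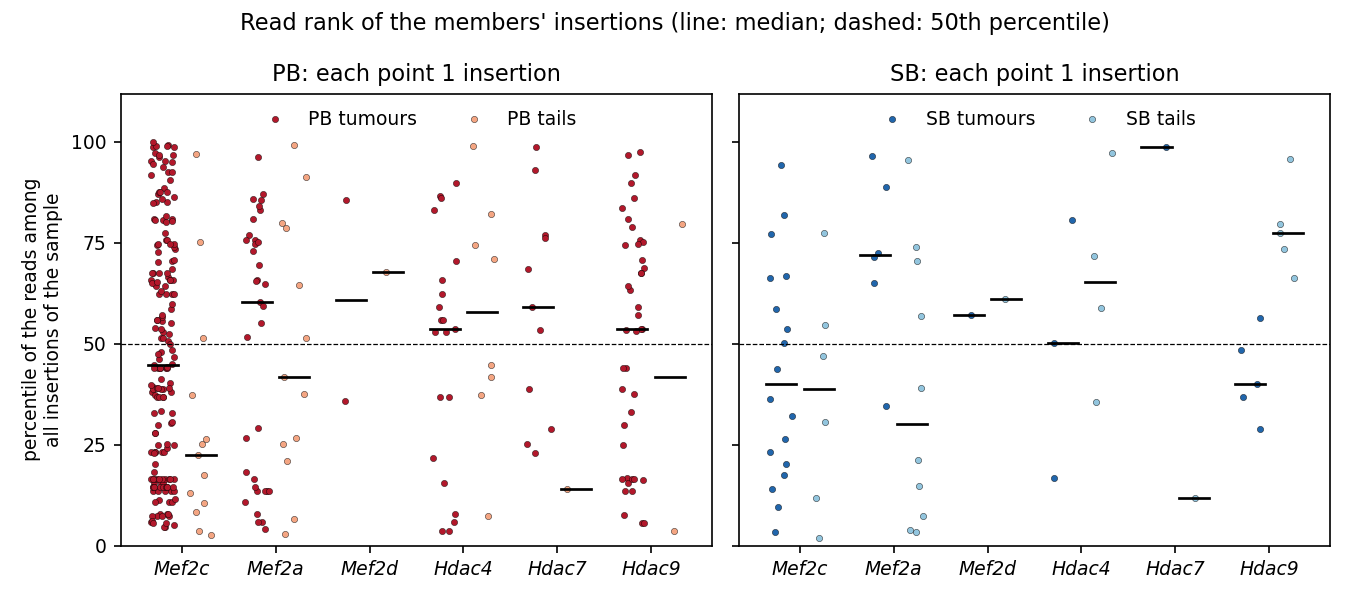
Percentile of the reads of each insertion among all insertions of its sample (y axis), for the 6 genes, in PB samples (left) and SB samples (right), with 1 point per insertion and a line at the median. The 183 Mef2c insertions of the PB tumours spread over the whole range with a median of 44.8, and the 13 of the tails have a median of 22.3.

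In the SB tumours Mef2c held 18 insertions, with counts of 0 in 5 tumours, 1 or 2 in 5 tumours and 11 in SB tumour 8, the only one labelled THYMUS. In the 11 SB tails there were 6, in 4 tails, with a highest count of 3. From the TA sites 4.32 and 4.37 were expected, so that the tumours were at 4.17 times the number expected (exact Poisson 95% interval 2.47 to 6.59) and the tails at 1.37 times (0.504 to 2.99). The log2 fold change in edgeR's quasi-likelihood fit was 1.68 ± 0.62 (SE), with an adjusted p of 0.233 over 1123 genes, and was not called, where 7 genes (0.623%) were called higher and 2 (0.178%) lower. Without SB tumour 8 it was 0.42 ± 0.71, and the 7 remaining insertions were 1.74 times the number expected. Among joined names alone, the form of every SB tumour, it was 2.39 ± 0.80 (adjusted p = 0.142 by edgeR). The 11 insertions of SB tumour 8, in a library of 2504, were on the strand of the gene in 2 cases, 5 had at least 10 reads and the best, with 38, ranked 439 by reads. Thus 1 tumour held most of the SB count.

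Of the SB tumour insertions of Mef2c, 3 of 18 lay before the first coding base, where 45.7% of the TA sites are, and their mean position was 0.624 ± 0.192 (SD, n = 6; two-sided exact sign-flip permutation test, p = 0.188, adjusted p = 0.882). Of 480 genes none was called for position (0%; 31 at an unadjusted p below 0.05). On the strand of the gene were 5 of 18 insertions (27.8%; exact test, p = 0.5, adjusted p = 1), where none of 481 genes was called (0%; 6 unadjusted). The mean read percentile was 49 ± 24.4 (exact test, p = 0.969, adjusted p = 0.985), where none of 486 genes was called (0%; 26 unadjusted). With 6 tumours hit these tests cannot reach a p below 0.0312. No difference beyond the spread was found between SB tumours and tails in the strand, rank or position of Mef2c insertions (exact permutation tests, p = 0.395, p = 0.662 and p = 0.229, with 6 and 4 samples).

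Mef2a, a paralog with 1187 TTAA and 10935 TA sites on chromosome 7 from 67231163 to 67376456 (minus strand), was hit in both tumours and tails. It held 35 insertions in 18 PB tumours (0 to 3 each, median 1) and 13 in 8 of 12 tails (0 to 2, median 1), which were 2.81 (1.96 to 3.91) and 3.38 (1.8 to 5.77) times the numbers expected. The log2 fold change was -0.28 ± 0.48 (SE), and 0.00 after TMM scaling and 0.05 ± 0.54 in DESeq2, so that its sign is not settled. In SB it held 6 insertions in 5 tumours and 10 in 7 tails, with a log2 fold change of -0.45 ± 0.68 (edgeR adjusted p = 0.909). Of the Mef2a insertions 48.6% were on the strand of the gene in the PB tumours. By sample that was 42.6 ± 40.1% (SD, n = 18), and 87.5 ± 23.1% in the tails (SD, n = 8; exact permutation test, p = 0.0117, not corrected for the 21 comparisons). In SB the read percentile of Mef2a was 75.1 ± 17.5 in the tumours (SD, n = 5) and 37.7 ± 26.5 in the tails (SD, n = 7; exact permutation test, p = 0.0265, not corrected either). Of the Mef2a insertions in PB tumours the best ranked 225 by reads, and none was among the first 100 of its tumour.

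Mef2d, on chromosome 3 from 88141941 to 88172091, has 73 TTAA sites over 30.2 kb, and 0.807 insertions were expected in the PB tumours. It held 2 there, in PB tumours 3 and 20, and 1 in each of the other groups. At this depth a difference could not have been detected, and the gene stayed below the minimum of 10 insertions of the fit.

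Hdac9 had the most insertions of the 3 deacetylase genes. The Gene column uses its name only from 34371497 to 34528889 on chromosome 12 (minus strand), the span of a RefSeq transcript of 588 codons, while RefSeq Hdac9 runs from 34047580 to 34917095 with a transcript of 1088 codons. Hdac9 is known for a short form without the deacetylase domain, which also represses Mef2 targets. In the labelled part there were 42 insertions in 20 of 30 PB tumours (0 to 8 each, median 1), with 8 in PB tumour 11, 6 in PB tumour 3 and 5 in PB tumour 22. In the tails there were 2 in 2 of 12. These were 3.2 times (2.31 to 4.33) and 0.498 times (0.0603 to 1.8) the numbers expected. The log2 fold change in edgeR was 2.11 ± 0.66 (SE), which is 4.31-fold, and 3.99-fold without PB tumour 3. This moderated fold lies below the ratio of the mean rates per 1000 kept insertions, 0.222 in tumours and 0.0247 in tails. On the log2 scale it was 0.82 ± 0.39 with the whole RefSeq span, 1.92 ± 0.69 with the name form as a covariate and 1.63 ± 0.59 with insertions of at least 10 reads. Among joined names alone it was 2.15 ± 0.97, and with presence per sample 1.20 ± 0.54.

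The rest of the RefSeq span of Hdac9 held 71 PB tumour insertions, 1.25 times the 56.8 expected, and 16 tail insertions, 0.92 times the 17.4 expected. Per 1000 kept insertions the rest had a mean of 0.411 ± 0.266 in the 30 tumours, where the 12 tails had 0.421 ± 0.353 (both SD). For the labelled part these means were 0.222 ± 0.225 and 0.0247 ± 0.0576. The labelled part was thus higher in tumours, and the rest was close to the tails, in a description that was not tested. Within the labelled part, 24 of 42 insertions lay in the first of 4 equal parts of the TTAA sites from 34528889, where this transcript starts, and 6 in each later part. The mean position was 0.402 ± 0.257 (SD, n = 20 tumours; two-sided exact sign-flip permutation test, p = 0.104, adjusted p = 0.396). Of the Hdac9 insertions, 19 of 42 were on the strand of the gene (45.2%), and their mean read percentile was 53.3 ± 23.3 (sign-flip permutation test, p = 0.537, adjusted p = 0.952). The best ranked 127 by reads.

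In SB, the labelled part of Hdac9 held 5 insertions in 4 tumours and 5 in 4 tails, with a log2 fold change of 0.19 ± 0.73 (edgeR adjusted p = 0.936), a sign that changed in DESeq2 (-0.01 ± 1.19). The read percentile was 42 ± 4.96 in the tumours and 79.3 ± 12.2 in the tails (SD, n = 4 each; exact permutation test, p = 0.0286, the smallest that 4 against 4 allows, not corrected for the 21 comparisons), with the groups apart.

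Hdac7 is small, with 138 TTAA sites over 51.8 kb on chromosome 15 from 97792661 to 97844502 (minus strand), and 1.67 insertions were expected in the PB tumours. It held 11, in 10 tumours, or 6.59 times that number (3.29 to 11.8), with 2 in PB tumour 3 and 1 in each of the others. In the tails there was 1, and in either SB group 1. Per 1000 sites this was 79.7 insertions in the PB tumours, the second highest rate of the 6 genes after Mef2c with 126. The log2 fold change in edgeR, moderated at such low counts, was 1.05 ± 0.68 (SE). Mean rates per 1000 kept insertions were 0.0697 in the PB tumours and 0.0113 in the PB tails. The mean position was 0.35 ± 0.187 (SD, n = 10 tumours), below the middle in 8 of 10 (two-sided exact sign-flip permutation test, p = 0.0273, adjusted p = 0.207). The median over all 1976 genes tested was 0.461. With 10 tumours hit, the fewest the test took, the smallest p-value it can give lies above those of the genes called. Hdac7 could therefore not have passed at any position, and its adjusted p decides nothing. Insertions on the strand of the gene were 6 of 11, and 6 of 11 had at least 10 reads. The best covered, with 186 reads in PB tumour 7, ranked 106, and the SB tumour insertion, with 49 reads in SB tumour 5, ranked 82 of 6060.

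Hdac4, on chromosome 1 from 91928779 to 92148393 as labelled (minus strand), held 21 insertions in 12 PB tumours (0 to 4 each, median 0) and 8 in 4 tails, which were 2.06 (1.28 to 3.15) and 2.65 (1.14 to 5.22) times the numbers expected. Its log2 fold change was -0.25 ± 0.53 (SE), and 0.01 after TMM scaling, where the SE as derived here is not reliable. In SB there were 3 insertions in 3 tumours and 4 in 4 tails. Strand (9 of 21 on the strand of the gene), read percentile (44.6 ± 25.6) and position (0.48 ± 0.214, SD, n = 12) did not pass the tests over all genes.

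The 5 sites hit in 2 PB tumours in the other genes are shown in windows of 30 bases of the GRCm38 plus strand, with the TTAA in capitals, for comparison with the recurrent sites of Mef2c.
Hdac7 chr15:97824136-97824165: cgtcaggtcttacTTAAcaaatgcctgtca
Hdac9 chr12:34390094-34390123: actgataatagtcTTAAaggacctgaaaac
Hdac9 chr12:34498684-34498713: atccaaaaaggacTTAAacatctcatctaa
Mef2a chr7:67261408-67261437: cccacaatcctttTTAAgtgaaggcgctga
Mef2a chr7:67318951-67318980: aaaacctactcctTTAAaaaagaaagttac
All 5 lie in introns. No site outside Mef2c was hit in more than 2 PB tumours among the 6 genes. At the Hdac7 site the insertions had 3 and 186 reads, on opposite strands. At the first Hdac9 site they had 6 and 24 reads, both on the strand opposite to the gene, and at the second 3 reads each.

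**Figure D4:**
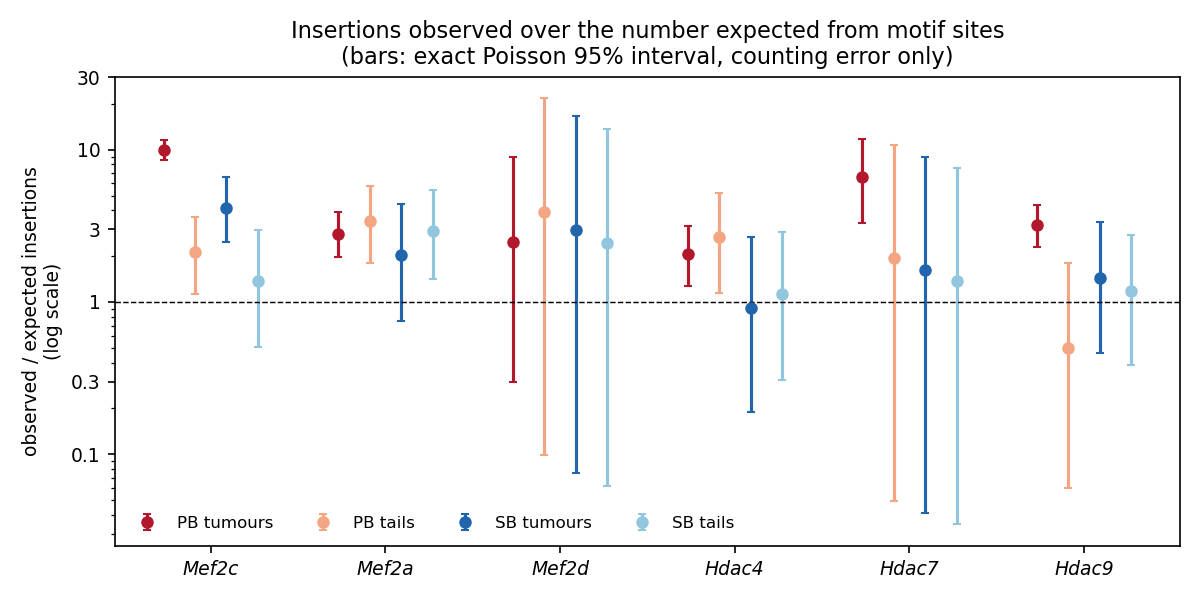
Insertions found in each of the 6 genes over the number expected from their motif sites (y axis, log scale) in the 4 groups, with exact Poisson 95% intervals that cover counting error only and a dashed line at 1. Mef2c in the PB tumours stands at 9.91, Hdac7 at 6.59 with a wide interval, and the intervals of Mef2d span from below 1 to above 1 in all 4 groups.

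Ordered by this ratio in the PB tumours, the genes were Mef2c (9.91), Hdac7 (6.59), Hdac9 (3.2), Mef2a (2.81), Mef2d (2.48) and Hdac4 (2.06). The intervals of each pair of neighbours in this order overlapped. They cover counting error only and leave out the spread between tumours, so the order is a description. The order depends on the setting. With at least 10 reads Hdac7 came first with 10.1, Mef2c had 7.82 and Mef2d had no insertion. Without PB tumour 3 Mef2d had 1.33 and came last, after Hdac4 with 2, and without PB tumours 20 and 22 it had 1.37. Over the RefSeq span Hdac9 came last with 1.62, after Hdac4 with 2.16. For the background, a one-sided Wald test with Bonferroni correction, hits in at least 3 samples and 5% of samples called 7.16% of 15342 genes in the PB tumours and 1.82% in the PB tails, and 0.648% of 15587 genes in the SB tumours and 0.353% in the SB tails. Mef2c, Hdac7, Hdac9 and Mef2a were above this threshold in the PB tumours and Mef2c in the SB tumours, which the choice of the genes used for PB and which is read as a description. Without SB tumour 8, Mef2c was not above it in SB. With insertions of at least 10 reads Hdac9 (12 insertions, 2.51 times the number expected) and Mef2a (13, 2.98 times) were not above it in the PB tumours, nor was Mef2c in the SB tumours (8, 3.19 times). By the same ratio, Mef2c was the 54th of the 2592 genes with at least 10 insertions in the PB tumours. The 7.16% above, 1099 genes, is a share of all 15342, most of which had fewer than 10 insertions there. It is thus no share of genes with as many insertions as the members above the threshold.

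A deacetylase gene was hit in 25 of 30 PB tumours and 4 of 12 PB tails, and in 6 of 11 samples of either SB group. For Hdac9 this counts the labelled part only. Over its RefSeq span Hdac9 alone was hit in 26 PB tumours and 11 of 12 PB tails, and in 9 samples of either SB group. A Mef2 gene was hit in 29 tumours and 11 tails of PB, and in 10 tumours and 9 tails of SB. Both Mef2c and a deacetylase gene, again with the labelled part of Hdac9, were hit in 24 PB tumours and 3 PB tails. Mef2c was hit in 29 of 30 PB tumours, so the 24 is close to the count of the deacetylase genes alone. All 6 genes were hit in 2 PB tumours, PB tumours 3 and 20, which are among those with the most insertions (10798 and 9436). By site of the tumour, Mef2c had 1.86 insertions per 1000, over all samples of a site together, in 6 mesenteric lymph nodes, 1.2 in 9 mesenteric masses, 0.934 in 5 lymph nodes without a further label and 0.847 in 6 spleens, and it was hit in every site of which there was a PB sample. Single tumours carry these values: they were 1.21 for the mesenteric lymph nodes without PB tumour 22, 0.842 for the mesenteric masses without PB tumour 20, 0.808 for the lymph nodes without PB tumour 30 and 0.48 for the spleens without PB tumour 3, which holds 16 of their 25 insertions. The difference between sites was not tested.

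The 5 genes with the most similar pattern to Mef2c, by Spearman correlation of insertions per 1000 over the 30 PB tumours among 907 other genes hit in at least 15, were Cyth1 (rho 0.56), Naa15 (0.49), Lpp (0.48), Clcn3 (0.43) and D930015E06Rik (0.42). Over all 907 genes the middle value was -0.01, and 95% lay below 0.29. Of the members, Hdac9 had 0.16 and Mef2a 0.08. These values share the library sizes by which the counts were divided, and are a description.

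In the pathway around the 6 genes, a list of 28 was counted: Mef2b and Hdac5, corepressors and acetyltransferases, the kinases that act on class IIa deacetylases or on Mef2, and calcineurin with its targets. In PB, 21 of the 28 had an insertion and 18 could be tested. None was called higher or lower in edgeR (5 of 18 had an unadjusted p below 0.05, compared with 651 of all 3303 genes), with log2 fold changes from -0.448 to 1.63 and a median of 0.793, where the median of all 3303 genes was 0.198. On simulated data the PB fit found 106 of 200 genes changed 4-fold, so a difference can be missed. In SB, 9 were tested and none was called (2 of 9 unadjusted, compared with 101 of all 1123), with a median of -6.3e-04. The 5 with the most PB tumour insertions were Ppp3ca, a catalytic subunit of calcineurin (86 insertions in 26 tumours, log2 fold change 0.75 ± 0.42), Camk2d, a calcium/calmodulin kinase (72 in 27, 0.84 ± 0.45), Crebbp, an acetyltransferase that Mef2 recruits (58 in 22, 1.41 ± 0.54, adjusted p = 0.0999), Sik3, a salt-inducible kinase (50 in 23, 0.69 ± 0.50), and Camk1d (41 in 17, 0.69 ± 0.53). Crebbp had 13 insertions in 8 SB tumours and 5 in 4 SB tails (log2 fold change 1.35 ± 0.66, edgeR adjusted p = 0.503).

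For strand and reads none of the 14 genes of the list hit in at least 10 PB tumours was called. For position 1 was, Mark3, a kinase of the MARK family, with a mean position of 0.292 ± 0.17 (SD, n = 14 tumours, below the middle in 12; two-sided exact sign-flip permutation test, p = 7.3e-04, adjusted p = 0.0382). Over all 1976 genes 52 (2.63%) were called for position, and the median position was 0.461. Every other setting called fewer genes, with 6 for positions of 1 sample only, and values of Mark3 under those settings are not given here. Hdac5, the fourth class IIa deacetylase, had no insertion in its RefSeq span of 58 TTAA sites in any group, and Mef2b is not named in the Gene column. The RefSeq span of Mef2b held 7 insertions in 5 PB tumours, all listed under the overlapping 2310045N01Rik. Against 0.428 expected this was 16.3 times the number (6.57 to 33.7), above the ratio of each of the 6 genes. Its interval covers counting error only and overlaps those of Mef2c, Hdac7 and Mef2d.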

How the data were processed

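The authors deposited raw read counts per insertion, not normalized, from splinkerette PCR of transposon ends and 75 bp paired-end MiSeq sequencing, on mm10 per the labels. The aligner, the caller and the read filters are not given in the sources used here, and no deposited line has fewer than 2 reads. A further per-sample column, a normalized coverage (1 column), was not used.

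Each position was set to the closest motif, TTAA for PB and TA for SB, at most 5 bp away, and counted once per sample. Sex chromosomes were left out, as was chromosome 14, which had the highest density of insertions and was taken as the donor. Genes follow the deposited Gene column, with ends set to the nearest matching transcript ends of RefSeq or GENCODE. A RefSeq span from start to end was an alternative. Sequences and RefSeq models come from GRCm38.p6.

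Tumours and tails were compared with edgeR 4.0.16 quasi-likelihood tests on insertions per sample and gene, scaled by each sample's kept insertions, for genes with at least 10 insertions in a system, and with DESeq2 1.42.0 as an alternative. Fold changes are log2 values computed here. Those of edgeR are moderated by a prior count, so at few insertions they lie closer to 0 than the ratio of the mean rates. Their SE was derived as the size of the log2 fold change over the square root of the F statistic. It is not an SE of the fit and is unreliable near a log2 fold change of 0. The SE of DESeq2 comes from its fit. Strand, read percentile and position were tested within the tumours with exact sign-flip permutation tests over the samples hit, for genes hit in at least 10 PB or 6 SB tumours. All p-values of these tests were Benjamini-Hochberg adjusted over all genes tested, with a threshold of 0.05. Member values in tumours and tails were compared with two-sided exact permutation tests. The edgeR fits and the PB sign-flip tests were tested on simulated data, and the exact permutation code was checked against scipy on drawn values. Of 200 genes changed 4-fold, the edgeR fit found 106 in PB and 145 in SB. Python 3.11.15, numpy 2.4.6, pandas 2.3.3, scipy 1.17.1, matplotlib 3.10.9 and R 4.3.3 were used.

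The 6 genes, the list of 28 and the tests were chosen with earlier results of these data known. Named genes are the 6, from the list Mef2b, Hdac5, any called gene and the 5 with the most PB tumour insertions, and the 5 genes most like Mef2c. The sites, the 2 kb window and the libraries left out were chosen after their values had been seen. Tails and tumours carry no replicate numbers that pair them.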

Additional observations from a re-analysis of the deposited data

Results flagged for a closer look

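Among the insertions that the Gene column does not assign to any of the 6 genes, those in the rest of the RefSeq span of Hdac9 included 1 in SB tumour 6 with 1381 reads, the second most of that tumour and 1.05% of its reads, at 34115280 on chromosome 12. The same site was found in 1 other SB sample, and the best covered insertion there in the SB tails had 165 reads. The deposited table lists it as intergenic.

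The RefSeq span of Mef2b, on chromosome 8 from 70152761 to 70167488 with 42 TTAA sites, held 7 insertions in 5 PB tumours, 16.3 times the 0.428 expected (6.57 to 33.7), and none in the other groups. They are listed under 2310045N01Rik, so the 2 genes cannot be told apart here.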

How the results depend on the processing

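Of 80 comparisons of a count of called genes with its value under another setting, 60 stayed within 1.5 times. For PB tumours against tails (147 genes called), DESeq2 called 91, no filter on low counts 64, presence per sample and gene 1, joined names alone 33 and separated names alone 28. The share called higher was 48.3%, and 76.4% after TMM scaling and 78% in DESeq2. For SB (9 called), DESeq2 called 2 and presence 0. For read rank in the PB tumours (0 called), insertions of at least 10 reads gave 2 and the most covered insertion per sample 1. For position (52 called), at least 10 reads gave 11, the most covered insertion 21, positions of 1 sample 6, joined names 27, and leaving out PB tumours 20 and 22 gave 22. Over the number expected, the exact Poisson test called 643 in PB tumours, 84 in PB tails, 36 in SB tumours and 17 in SB tails, and at least 10 reads gave 482 in PB tumours and 183 in PB tails. The cause of these shifts was not tested. Separated names alone held too few PB tumours for strand, rank and position.

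For single genes, 252 values kept their direction and their side of the threshold or, for ratios, stayed within the counting interval. Some of these moved by over 1.5 times, among them the ratio of Hdac7 in the PB tumours (10.1 with at least 10 reads), that of Mef2d (1.33 without PB tumour 3) and the SB log2 fold change of Mef2c (0.42 without SB tumour 8). A further 8 ratios moved beyond it, and 20 values turned their direction. The edgeR call, from which nothing is read in PB, was lost in 9 cases, for Mef2c among joined names and with presence per sample and 7 times for Hdac9 (RefSeq span, at least 10 reads, name form as covariate, no filter, presence, joined names and without PB tumour 3). Those that turned, none of them called, were as follows. Log2 fold changes in PB became 0.05 (DESeq2) and 0.22 (separated names) for Mef2a, and 0.02 (DESeq2) and 0.01 (TMM) for Hdac4. In SB they became 0.19 (at least 10 reads) for Mef2a, and -0.01 (DESeq2), -0.01 (TMM) and -0.05 (name form as covariate) for Hdac9. The percentage on the strand of the gene became 51.7 for Mef2c and 60 for Hdac9 with the most covered insertion, 53.8 for Mef2a with at least 10 reads and 54 for Hdac9 with the RefSeq span. Read percentiles became 49.7 (at least 10 reads), 48.6 (positions of 1 sample) and 48.6 (joined names) for Mef2a and 47.4 (RefSeq span) for Hdac9. Positions became 0.504 for Mef2c and 0.516 for Mef2a with at least 10 reads, 0.504 for Mef2a without PB tumours 20 and 22, and 0.504 for Hdac4 with the most covered insertion. The ratio of Mef2c insertions to the number expected in the PB tumours was 7.82 with at least 10 reads, 7.27 with positions of 1 sample and 7.96 without PB tumours 20 and 22. Leaving out single libraries and splits by name form between tumours and tails were added after the data had been seen.

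No paired analysis was possible because the numbers of the samples only name them and the codes in their titles all differ. Mef2d had 0.807 insertions expected in the PB tumours, too few for a test at this depth.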
